A study of Mus musculus with 4 samples.

Results

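The club cell secretory genes analysed here are 7 genes whose products mark the secretory cells of the conducting airways: *Scgb1a1*, *Scgb3a1*, *Scgb3a2*, *Bpifa1*, *Bpifb1*, *Cyp2f2* and *Cbr2*. They are 7 of the 45706 genes in a table of RNA-seq counts from left lung lobes at embryonic day 17 (E17). The choice was by symbol, with earlier results of these data known. The comparison was between 2 wild-type C57BL/6 mice and 2 C57BL/6 mice homozygous for the L458R mutation of *Myh10* (Myh10L458R/L458R, a missense allele from a chemical mutagenesis screen that the study writes as Myh10-/-), all untreated. *Myh10* encodes the heavy chain of nonmuscle myosin II-B, and the allele was present in every cell of the embryo rather than in 1 cell type. The question was how the loss of a normal myosin II-B motor alters transcripts of the lung shortly before birth.

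Club cells are secretory cells of the airway lining. They release small secretoglobins and other proteins into the airway fluid, carry a large endoplasmic reticulum with enzymes that modify inhaled chemicals, and serve as progenitors for the airway epithelium. In the mouse their secretory genes switch on before birth, after the airway lineage marked by the transcription factor SOX2 has been set apart from the distal lineage, and Notch signalling favours secretory over multiciliated fate.

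Total counts on genes were 23156026 and 19116971 in the wild-type lungs and 27573824 and 32055306 in the Myh10L458R/L458R lungs. Values below are counts per 1000000 (CPM) of the library total, scaled by the trimmed mean of M-values (TMM). Fold changes are log2 values of Myh10L458R/L458R over wild type from 1 edgeR fit of the 18763 genes that averaged 5 or more counts over the lungs. *Myh10* itself had 505 and 504 CPM in the wild-type lungs and 539 and 513 in the Myh10L458R/L458R lungs, so its level does not check a label that stands for an amino acid change. Reads of *Xist* were abundant in wild-type lung 1 and Myh10L458R/L458R lung 2, and reads of the Y-linked *Ddx3y* in the other lung of each genotype, so that each genotype held 1 lung of each kind. The labels do not say whether the lungs shared litters, and p-values measure only the spread between these 4 lungs.

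Of the 7 genes, 6 passed the filter on low counts, and *Bpifa1* did not. *Scgb1a1*, *Cyp2f2* and *Cbr2* fell in Myh10L458R/L458R lungs at an adjusted p under 0.05, none rose (also 0 with DESeq2, and 0 at an unadjusted p under 0.05), and *Scgb3a1*, *Scgb3a2* and *Bpifb1* did not pass. The number called depended on the test. With the robust setting of edgeR 1 member was called, *Cyp2f2*, when 2.53% of all genes were called. With the DESeq2 Wald test it was again *Cyp2f2* alone, with 1.87% of all genes called. Without a filter beyond 1 count *Scgb3a1* and *Scgb3a2* were added and 5 members were called, with 4.07% of all genes called. Over all tested genes 1.64% were called, 1.34% lower and 0.298% higher, and the share called was 8.85% without Myh10L458R/L458R lung 2 and 1.08% without wild-type lung 2. The log2 fold change was below 0 for 6 of the 6 tested genes and for 49.5% of all tested genes, with medians of -0.66 and 0.00. Both Myh10L458R/L458R lungs lay below both wild-type lungs for 6 of the 6 tested genes, a separation that 24.3% of all tested genes showed in that direction and 23.9% in the other. In bulk RNA, fewer club cells, less RNA per club cell and changes in other cells that express these genes cannot be told apart. The study reports that, by staining, club and ciliated cell numbers of the distal airway did not appear significantly altered in mutants. Its main text names no stage for that staining, and cell numbers are a different measure from RNA of E17 lobes.

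**Figure D1:**
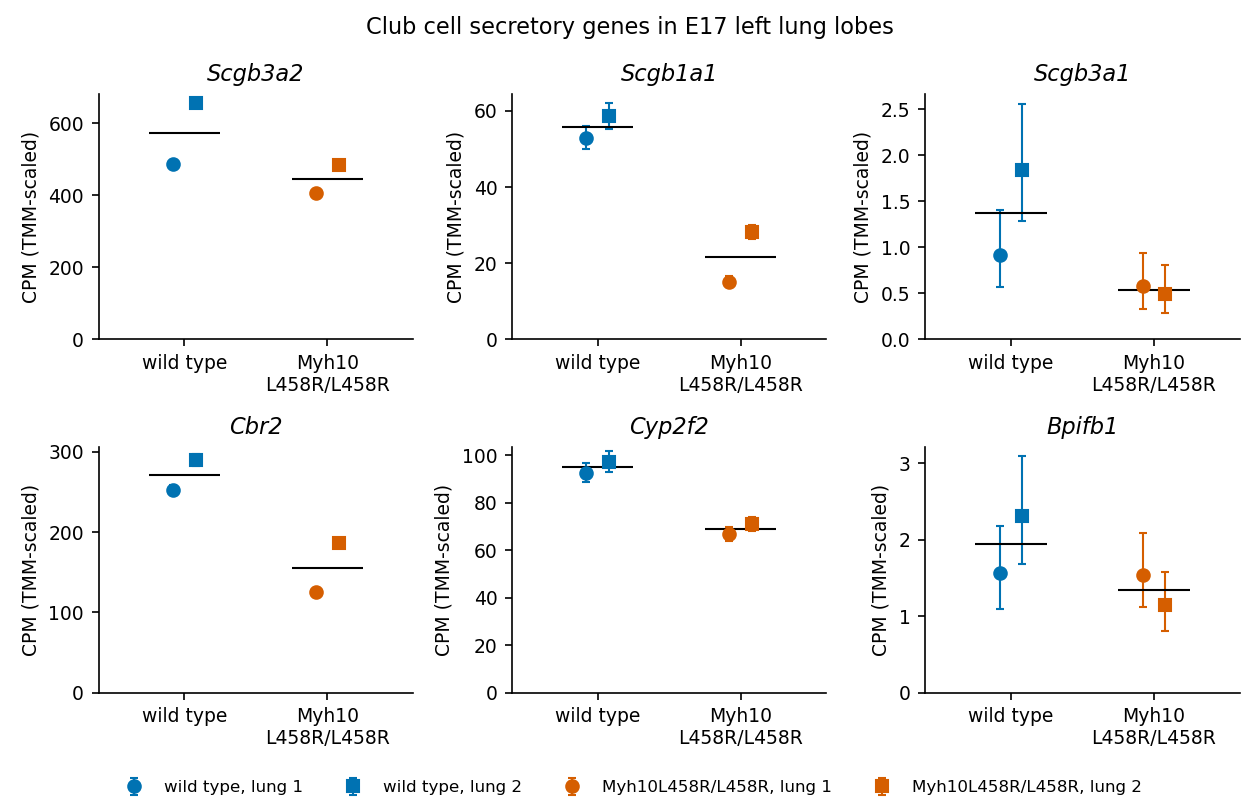
Level of each tested club cell secretory gene in each lung, in TMM-scaled CPM on a linear axis from 0, with wild-type lungs in blue and Myh10L458R/L458R lungs in orange. Circles are lung 1 and squares lung 2 of a genotype, bars on the points are 95% Poisson intervals that cover counting error only, and horizontal lines are the means of the 2 lungs. *Scgb1a1*, *Cbr2* and *Cyp2f2* show a gap between genotypes. *Scgb3a1* also does, but the interval of wild-type lung 1 overlaps those of both Myh10L458R/L458R lungs. The nearest lungs of *Scgb3a2* and *Bpifb1* almost touch.

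The secretoglobins are small secreted proteins that form the bulk of the club cell product. *Scgb1a1* (ENSMUSG00000024653, chromosome 19 from 9083636 to 9087958 on the minus strand of GRCm38) encodes the club cell secretory protein, the cell type's defining marker. Its level was 52.9 and 58.6 CPM in the wild-type lungs and 15.1 and 28.2 CPM in the Myh10L458R/L458R lungs, from 1213, 1116, 420 and 908 counts. The wild-type lungs lay close together, at a ratio of 1.11, whereas Myh10L458R/L458R lung 2 held 1.87 times the level of Myh10L458R/L458R lung 1 and was still below both wild-type lungs. The mean fell from 55.8 ± 4.0 to 21.6 ± 9.27 CPM (SD, n = 2 lungs per genotype), which is 38.8% of the wild-type mean. The log2 fold change was -1.36 (SE 0.19, 95% interval -1.78 to -0.93), with an adjusted p of 0.00897 in the edgeR quasi-likelihood test. It was -1.88 when Myh10L458R/L458R lung 2 was left out and -0.98 when lung 1 was left out. The call was lost with the robust setting of the edgeR test (adjusted p = 0.343) and with the Wald test of DESeq2 (adjusted p = 0.0529), at fold changes of -1.36 and -1.36.

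*Scgb3a2* (ENSMUSG00000038791, chromosome 18 from 43764289 to 43767399 on the plus strand) encodes a secretoglobin that appears early in the embryonic airway. The gene is a known target of NKX2-1, the transcription factor of lung epithelium. It had 488 and 658 CPM in the wild-type lungs and 408 and 485 CPM in the Myh10L458R/L458R lungs, from 11195, 12533, 11355 and 15613 counts. The highest Myh10L458R/L458R lung lay just under the lowest wild-type lung, at a ratio of 1.01, and the wild-type lungs differed from each other by 1.35 times. The log2 fold change was -0.36 (SE 0.12, 95% interval -0.61 to -0.11) and missed the threshold (adjusted p = 0.147 in edgeR). Single lungs decided this value, which was -0.56 without wild-type lung 1 (adjusted p = 8.07e-04), -0.49 without Myh10L458R/L458R lung 2 (adjusted p = 0.00409) and -0.13 without wild-type lung 2 (adjusted p = 0.757).

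*Scgb3a1* (ENSMUSG00000064057, chromosome 11 from 49663610 to 49665118 on the plus strand) encodes a secretoglobin of the more proximal airway. It was scarce, with 21 and 35 counts in the wild-type lungs and 16 and 16 counts in the Myh10L458R/L458R lungs, or 0.916, 1.84, 0.575 and 0.497 CPM. The wild-type lungs differed by 2.01 times, more than wild-type lung 1 differed from either Myh10L458R/L458R lung in ratio. Its log2 fold change of -1.33 (SE 0.40, 95% interval -2.19 to -0.46) was close to that of *Scgb1a1* in size but did not pass (edgeR adjusted p = 0.121). Without wild-type lung 1 it was -1.77 (adjusted p = 0.0219), and without wild-type lung 2 it was -0.78 (adjusted p = 0.654).

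The BPI fold proteins are secreted host defence proteins of the upper and larger airways. *Bpifa1* (ENSMUSG00000027483, chromosome 2 from 154142880 to 154149219 on the plus strand) is also known as SPLUNC1. It had 0, 0 and 0 counts in wild-type lung 1, wild-type lung 2 and Myh10L458R/L458R lung 1 and 1 count in Myh10L458R/L458R lung 2. A count of 0 allows up to 3 counts, which is 0.131 and 0.157 CPM in the wild-type lungs and 0.108 CPM in Myh10L458R/L458R lung 1. A difference between genotypes was not detectable at this depth.

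*Bpifb1* (ENSMUSG00000027485, chromosome 2 from 154190818 to 154220369 on the plus strand), also known as LPLUNC1, lies in the same gene cluster as *Bpifa1*. It had 1.57 and 2.31 CPM in the wild-type lungs and 1.54 and 1.15 CPM in the Myh10L458R/L458R lungs, from 36, 44, 43 and 37 counts. Wild-type lung 1 and Myh10L458R/L458R lung 1 were nearly equal, at a ratio of 1.02. The log2 fold change was -0.52 (SE 0.29, edgeR adjusted p = 0.403), and its 95% interval, -1.15 to 0.12, held both no change and a change of the size seen for *Cbr2*. Without wild-type lung 1 it was -0.79, without Myh10L458R/L458R lung 1 -0.73, without Myh10L458R/L458R lung 2 -0.31 and without wild-type lung 2 -0.23, none of which passed.

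The last pair of genes encode metabolic enzymes rather than secreted proteins. *Cyp2f2* (ENSMUSG00000052974, chromosome 7 from 27119909 to 27133660 on the plus strand) encodes a cytochrome P450 concentrated in mouse club cells. There the enzyme activates naphthalene and so makes these cells sensitive to it. The *Cyp2f2* level was 92.7 and 97.2 CPM in the wild-type lungs and 66.8 and 71.2 CPM in the Myh10L458R/L458R lungs. Lungs of 1 genotype agreed within a ratio of 1.05 for wild type and 1.07 for Myh10L458R/L458R, the tightest of the 6 tested members taken over both genotypes. The mean fell from 94.9 ± 3.14 to 69.0 ± 3.08 CPM (SD, n = 2), to 72.7% of wild type, with a log2 fold change of -0.46 (SE 0.06, 95% interval -0.60 to -0.32, edgeR adjusted p = 0.00897). *Cyp2f2* passed the threshold in each of the 15 alternative analyses, with log2 fold changes from -0.50 to -0.41. Among these the threshold of 0.1 reads the same fit, so *Cyp2f2* had to pass there. The antisense gene *Gm15883* overlaps 274 of its 2025 exon bases, and the strand setting of the counting is not given in the sources used here. *Gm15883* itself had 56, 59, 89 and 92 counts against 1851 to 2292 counts for *Cyp2f2*. In CPM *Gm15883* was at 2.44 and 3.10 in the wild-type lungs and 3.20 and 2.86 in the Myh10L458R/L458R lungs (log2 fold change 0.14).

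*Cbr2* (ENSMUSG00000025150, chromosome 11 from 120729489 to 120732114 on the minus strand) encodes a carbonyl reductase that is abundant in mouse lung. The enzyme is found in club cells and alveolar type 2 cells. *Cbr2* had 252 and 290 CPM in the wild-type lungs and 125 and 187 CPM in the Myh10L458R/L458R lungs. As for *Scgb1a1*, Myh10L458R/L458R lung 1 was the lowest of the 4 lungs, here 1.5 times below lung 2 of its genotype, and the genotypes did not overlap. The mean fell from 271 ± 26.5 to 156 ± 44.0 CPM (SD, n = 2), to 57.5% of wild type. The log2 fold change was -0.80 (SE 0.13, 95% interval -1.08 to -0.51, edgeR adjusted p = 0.0156), and leaving out 1 Myh10L458R/L458R lung moved it to -1.12 without lung 2 and -0.53 without lung 1. With the robust setting the adjusted p was 0.405 and with the Wald test of DESeq2 it was 0.135. A pseudogene, *Gm11771*, shares 8.31% of the 75-base windows of *Cbr2* transcripts and had 1, 1, 1 and 4 counts. The transcripts of the 3 secretoglobins and of both BPI fold genes shared 0 such windows with other genes.

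**Figure D2:**
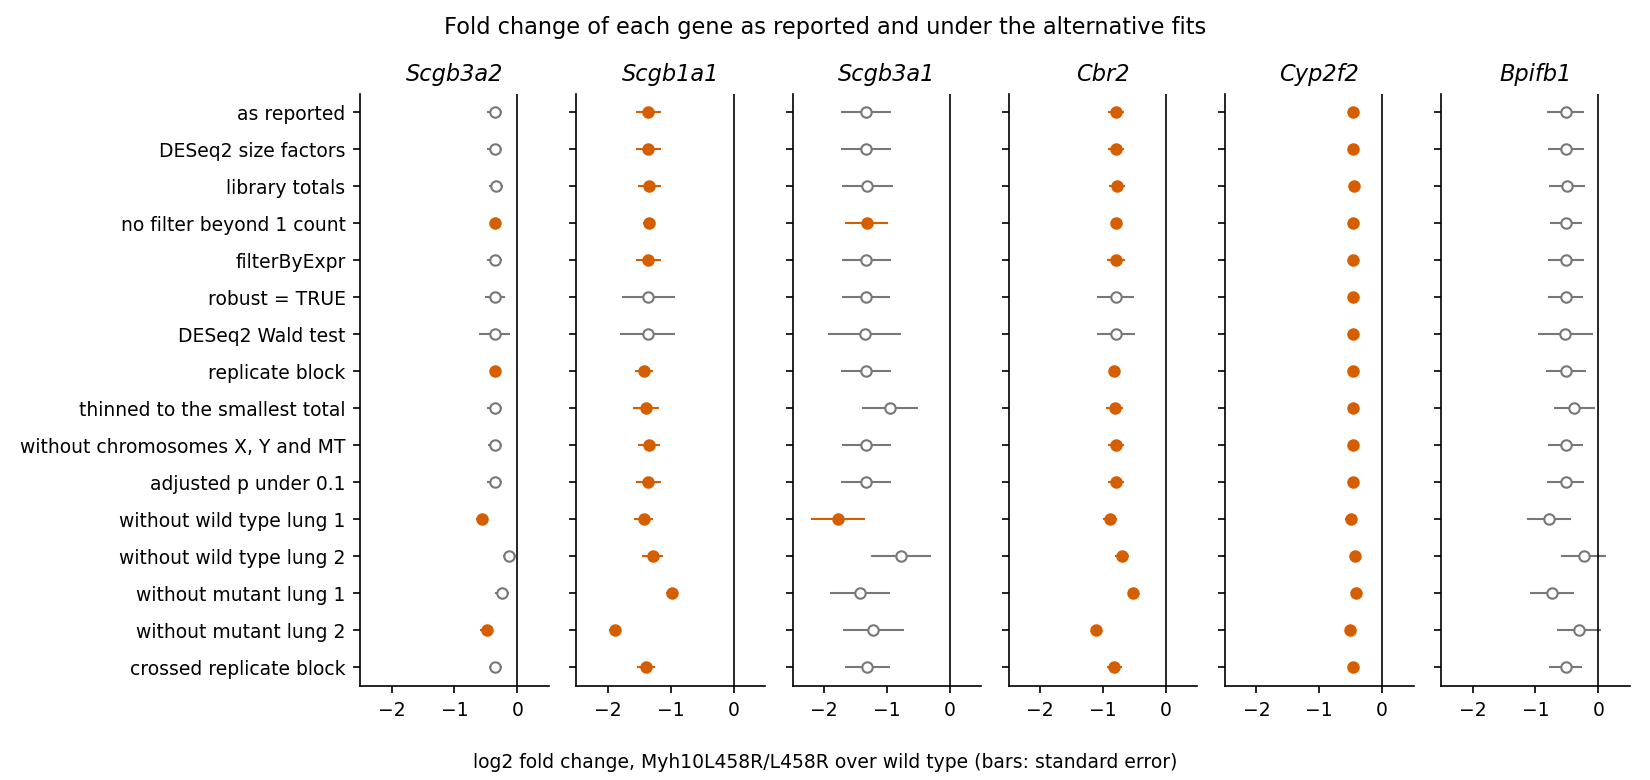
log2 fold change of each tested gene (x axis, with bars of 1 standard error) under the reported fit and 15 alternatives (rows). Filled orange points passed the adjusted p threshold of that fit and open grey points did not. All points of *Cyp2f2* are filled, *Scgb1a1* and *Cbr2* are open under the robust setting and the DESeq2 Wald test, and *Scgb3a2* is filled in 4 of the 15 alternatives.

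Sequence around the transcription start was examined because the called members all fell. RefSeq sequences (GRCm38.p6), from 250 bases before to 50 bases after a start, were used for 5 of the 7 genes, and *Scgb1a1* and *Scgb3a2* are not shown. The promoters of the enzymes that fell, *Cbr2* (chr11:120731972-120732271, minus strand) and *Cyp2f2* (chr7:27119705-27120004, plus strand), are printed with that of *Scgb3a1* (chr11:49663345-49663644, plus strand), the secretoglobin for which a sequence was used. Capitals mark matches on either strand to TGTTTNC, a forkhead (FOXA) motif, to CTCAAG, an NKX2-1 motif, to TTGCNNAA, a C/EBP motif, or to the TATA box TATAAA.
Cbr2: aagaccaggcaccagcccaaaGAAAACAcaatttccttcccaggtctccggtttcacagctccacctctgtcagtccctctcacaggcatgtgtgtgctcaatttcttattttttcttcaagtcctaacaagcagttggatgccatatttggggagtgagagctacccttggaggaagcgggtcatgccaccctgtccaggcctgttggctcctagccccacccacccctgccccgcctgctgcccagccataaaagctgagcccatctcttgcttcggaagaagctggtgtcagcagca
Cyp2f2: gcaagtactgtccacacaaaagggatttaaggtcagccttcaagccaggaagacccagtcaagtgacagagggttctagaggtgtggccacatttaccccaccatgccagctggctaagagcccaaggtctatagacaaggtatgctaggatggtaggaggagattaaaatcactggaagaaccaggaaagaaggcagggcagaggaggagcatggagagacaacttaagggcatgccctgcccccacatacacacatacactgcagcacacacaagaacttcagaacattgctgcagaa
Scgb3a1: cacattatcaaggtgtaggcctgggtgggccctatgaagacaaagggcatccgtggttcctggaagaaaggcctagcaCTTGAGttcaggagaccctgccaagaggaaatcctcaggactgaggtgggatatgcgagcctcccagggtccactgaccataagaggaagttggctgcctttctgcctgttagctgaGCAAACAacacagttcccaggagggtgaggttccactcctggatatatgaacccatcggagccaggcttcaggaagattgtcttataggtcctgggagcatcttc

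No match to any of the 4 motifs occurred in the *Cyp2f2* window. The *Cbr2* window held 1 forkhead match, GAAAACA as printed, which begins 229 bases before the start. *Scgb3a1* had a forkhead match (GCAAACA) 55 bases and an NKX2-1 match (CTTGAG) 172 bases before the start. Of the BPI fold genes, *Bpifb1* had a forkhead match 43 bases before the first of its 2 starts, and *Bpifa1*, at 0 or 1 count a lung, had NKX2-1 matches 213 bases before and 36 bases after the start and a TATA box 29 bases before it. These letters are common, since the forkhead motif occurred in 20.5% of 32851 promoter windows of the same length, the NKX2-1 motif in 15.9%, the TATA box in 13.6% and the C/EBP motif in 10.8%. GC content was 54.7% for *Cbr2*, 50.3% for *Cyp2f2* and 53.3% for *Scgb3a1*, against a median of 52.7% over all windows.

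Levels of the members relative to each other were compared as CPM per kilobase of exon. In the wild-type lungs the order was *Scgb3a2* (555 and 748), *Cbr2* (190 and 218), *Scgb1a1* (111 and 123), *Cyp2f2* (45.8 and 48.0), *Scgb3a1* (1.53 and 3.07) and *Bpifb1* (0.434 and 0.639), and no neighbours in this order overlapped. Among Myh10L458R/L458R lungs *Scgb1a1* (31.7 and 59.2) spanned the values of *Cyp2f2* (33 and 35.2), so that this pair could no longer be ranked. *Scgb3a2* stayed first at 464 and 551, *Cbr2* followed at 94.0 and 141, and *Scgb3a1* (0.961 and 0.831) lay above *Bpifb1* (0.427 and 0.318). As a share of the summed CPM of the 7 genes, *Scgb3a2* made up 55% and 59.4% in the wild-type lungs and 66.1% and 62.7% in the Myh10L458R/L458R lungs. The share of *Scgb1a1* was 5.96% and 5.29% against 2.45% and 3.65%, and that of *Cyp2f2* overlapped between genotypes (10.4% and 8.77% against 10.8% and 9.21%).

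Because whole lobes mix cell types, the members were also set against other epithelial genes of the same lung, which removes the library scaling. For every 100 reads of *Scgb3a2* there were 10.8 and 8.90 reads of *Scgb1a1* in the wild-type lungs and 3.70 and 5.82 in the Myh10L458R/L458R lungs. Per 100 reads of *Nkx2-1* the values of *Scgb1a1* were 12.2 and 12.9 against 3.32 and 6.30, and per 100 reads of *Foxj1*, the regulator of multiciliated cells, they were 77.1 and 76.3 against 24 and 48.0. Against *Sftpc*, the surfactant protein gene of alveolar type 2 cells, they were 0.911 and 1.04 against 0.390 and 0.594. *Scgb1a1* was therefore lower in both Myh10L458R/L458R lungs whichever of these genes it was set against. With 2 lungs per genotype the exact two-sided permutation test of a ratio cannot go below p = 0.333, the value that each of these ratios gave.

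*Cbr2* was likewise lower in both Myh10L458R/L458R lungs relative to *Scgb3a2* (51.6 and 44.0 against 30.6 and 38.5 per 100 reads) and to *Nkx2-1* (58.1 and 63.7 against 27.4 and 41.8). *Cyp2f2* depended on the gene it was set against. Per 100 reads of *Nkx2-1* it had 21.4 and 21.4 in the wild-type lungs and 14.7 and 15.9 in the Myh10L458R/L458R lungs, without overlap. The genotypes did not overlap against *Epcam*, *Foxj1* or the summed pan-epithelial genes either, but they did against *Scgb3a2*. Per 100 reads of *Sftpc*, *Cyp2f2* had 1.6 and 1.73 against 1.73 and 1.5, and the genotypes overlapped. *Sftpc* was itself lower in both Myh10L458R/L458R lungs than in both wild-type lungs. *Scgb3a2* also overlapped when set against *Sftpc* (8.4 and 11.7 against 10.5 and 10.2) and against *Epcam*, a gene of all lung epithelium (340 and 434 against 276 and 350).

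**Figure D3:**
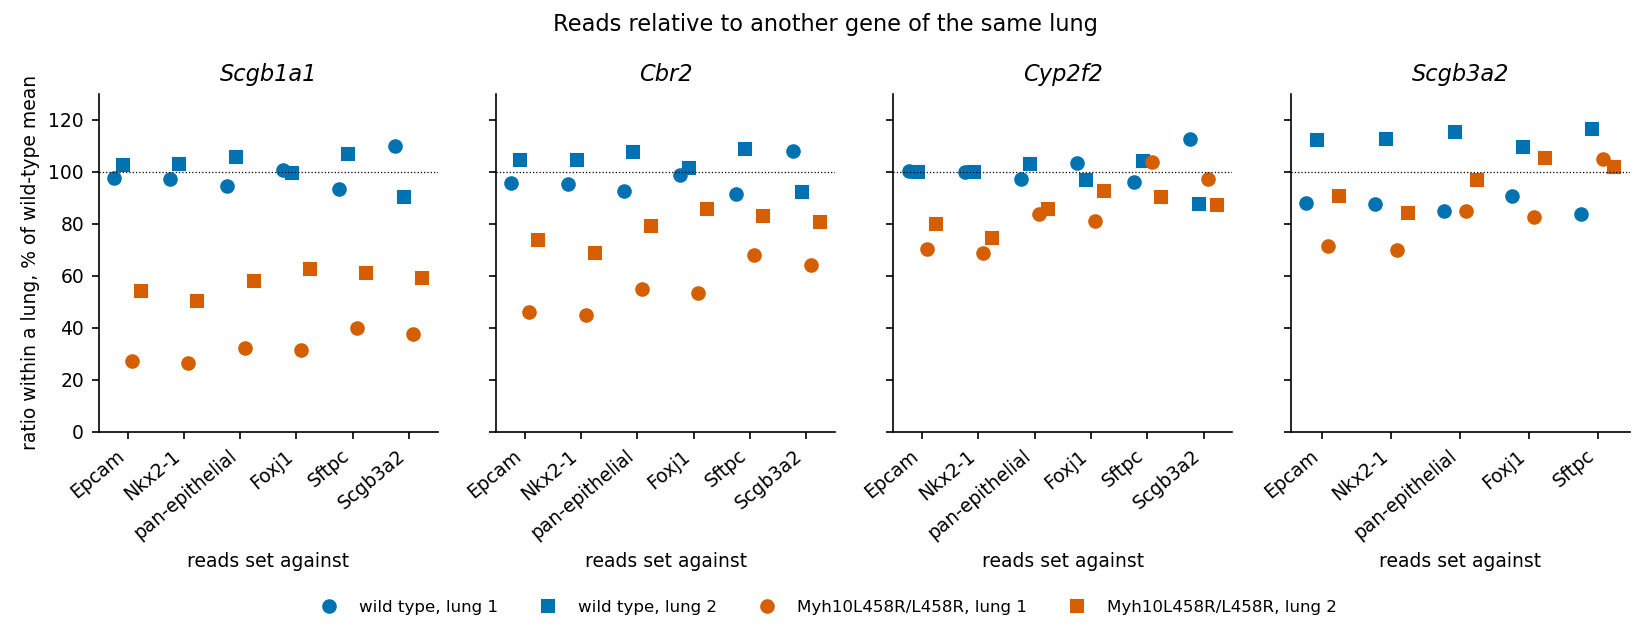
Reads of *Scgb1a1*, *Cbr2*, *Cyp2f2* and *Scgb3a2* relative to another gene, or to the summed pan-epithelial genes, of the same lung (x axis), as percent of the wild-type mean of that ratio (y axis, linear from 0). Blue marks wild-type and orange Myh10L458R/L458R lungs, circles lung 1 and squares lung 2, and the dotted line is 100%. *Scgb1a1* and *Cbr2* separate by genotype against every gene shown, *Cyp2f2* overlaps against *Sftpc* and *Scgb3a2*, and *Scgb3a2* overlaps against all but *Nkx2-1*.

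Other genes listed for the secretory lineage were examined with the members, and whole lobes do not show which cells their reads came from. Of 36 tested genes of club and other airway secretory cells, 6 fell, none rose (0 with DESeq2, and 1 at an unadjusted p under 0.05) and 30 did not pass, with a median log2 fold change of -0.24. Those that fell were *Retnla* (-0.94), a secreted resistin-like protein, *Hp* (-0.73), haptoglobin, *Selenbp1* (-0.39), *Lgi3* (-0.33), *Ces1d* (-0.31), a carboxylesterase, and *Itm2a* (-0.24). *Fmo2*, a flavin monooxygenase and the most abundant gene of the list, had 539 and 467 CPM in the wild-type lungs and 412 and 487 in the Myh10L458R/L458R lungs, which overlapped (edgeR adjusted p = 0.360). The number that fell was 3 without wild-type lung 2 and 14 without Myh10L458R/L458R lung 2.

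The families of the members gave little further signal in these lobes. The table holds 78 other secretoglobin and BPI fold genes, of which 72 had 0 counts in all 4 lungs and 2 were tested. *Bpifb5* had 84, 59, 63 and 87 counts in wild-type lungs 1 and 2 and Myh10L458R/L458R lungs 1 and 2, with a log2 fold change of -0.45 (edgeR adjusted p = 0.311), and *Bpifc* had 11, 12, 21 and 18 counts. *Scgb1c1*, *Scgb1b30*, *Bpifa3* and *Scgb2b27* had at most 5 counts in a lung. Of 29 tested genes for carbonyl reductases and other enzymes of xenobiotic metabolism, *Akr1c14* fell (log2 fold change -0.50), a gene that shares 234 exon bases with *Gm18857*, and the median was -0.14. The call was lost when counts were thinned to the smallest total (0 genes of the list), and the number that fell was 2 without wild-type lung 1 and 5 without Myh10L458R/L458R lung 2.

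Among 34 tested transcription factors of the airway and Notch genes, *Elf3*, an epithelial ETS factor, was the single gene called (log2 fold change -0.42, edgeR adjusted p = 0.0196), and the antisense gene *Gm26642* overlaps 162 of its exon bases. That call was lost without wild-type lung 2 and without Myh10L458R/L458R lung 1, each of which left 0 genes of the list called, while 4 were called without wild-type lung 1 and 3 without Myh10L458R/L458R lung 2. *Nkx2-1* had 434 and 454 CPM in the wild-type lungs and 455 and 447 in the Myh10L458R/L458R lungs (log2 fold change 0.02, SE 0.05). *Sox2*, the factor of the airway lineage, had 8.73 and 9.08 against 8.59 and 8.11 CPM, and *Hes1*, a Notch target, 61.7 and 79.4 against 58.6 and 59.9 CPM (log2 fold change -0.25, edgeR adjusted p = 0.233). The median of the list was -0.08.

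Fold changes of genes of the other airway cells were smaller than that of *Scgb1a1*. Those of multiciliated cell genes ran from -0.54 to 0.21 on the log2 scale. *Scgb3a2* (-0.36), *Cyp2f2* (-0.46) and *Bpifb1* (-0.52) lay within that range, and *Cbr2* (-0.80) and *Scgb3a1* (-1.33) below it. Of 35 tested multiciliated cell genes, *Dnai2*, a dynein arm component, fell (log2 fold change -0.40, edgeR adjusted p = 0.0392), and the median was -0.18. DESeq2 called 0 of these 35 genes, and edgeR 0 without wild-type lung 2, 2 without wild-type lung 1 and 4 without Myh10L458R/L458R lung 2. *Foxj1* had 68.6 and 76.7 CPM in the wild-type lungs and 62.9 and 58.8 in the Myh10L458R/L458R lungs and did not pass (edgeR adjusted p = 0.121). None of 16 tested neuroendocrine, 9 basal cell and squamous, 15 airway cartilage and 16 airway smooth muscle genes passed in either direction in edgeR, with medians of -0.10, -0.10, 0.10 and -0.05. DESeq2 likewise called 0 in these 4 lists, and 1, 2, 3 and 1 of their genes had an unadjusted p under 0.05 in edgeR. Without Myh10L458R/L458R lung 2, 1 basal, 1 cartilage and 1 smooth muscle gene fell. Of 12 goblet and submucosal gland genes *Muc1* fell (-0.37), a membrane mucin that alveolar cells also express (2 genes fell without wild-type lung 1), and the secreted mucin gene *Muc5b*, at 0.349 and 2.10 against 0.898 and 0.497 CPM, overlapped between genotypes.

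Epithelial genes beyond the airway moved with the members, and their part in the values above was not tested. Of 20 pan-epithelial genes 7 fell (4 without wild-type lung 1 and 11 without Myh10L458R/L458R lung 2), and their summed level was 2270 and 2250 CPM in the wild-type lungs and 1896 and 1975 CPM in the Myh10L458R/L458R lungs. *Epcam* had 144, 151, 148 and 139 CPM in wild-type lungs 1 and 2 and Myh10L458R/L458R lungs 1 and 2 and overlapped, whereas *Cdh1*, which encodes E-cadherin, fell by 0.30 on the log2 scale. Of 18 alveolar type 2 cell genes 14 fell (11 with DESeq2), and the summed level of the list was 11522 and 10899 CPM against 7657 and 9064 CPM. The study, in contrast, reports more alveolar type 2 cells and raised *Sftpa*, *Sftpc* and *Abca3* expression in mutant lungs. Its main text names no stage for those values, and the difference was not tested. *Chil1*, a chitinase-like protein (log2 fold change -2.05), and the surfactant protein gene *Sftpd* (-1.06) fell, while *Sftpc* had 5812 and 5627 against 3874 and 4748 CPM (-0.41, edgeR adjusted p = 0.173). Of 18 alveolar type 1 cell genes 12 fell, among them *Aqp5*, a water channel (-1.23), and *Ager* (-0.58). No defining gene of these 3 lists was at 0. Over the lists, each gene counted once, 42 of 257 tested genes were lower and 0 higher in edgeR, against 37 and 0 in DESeq2. At an unadjusted p under 0.05 there were 92 lower and 7 higher genes, and without Myh10L458R/L458R lung 2 the calls numbered 70 lower and 4 higher.

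**Figure D4:**
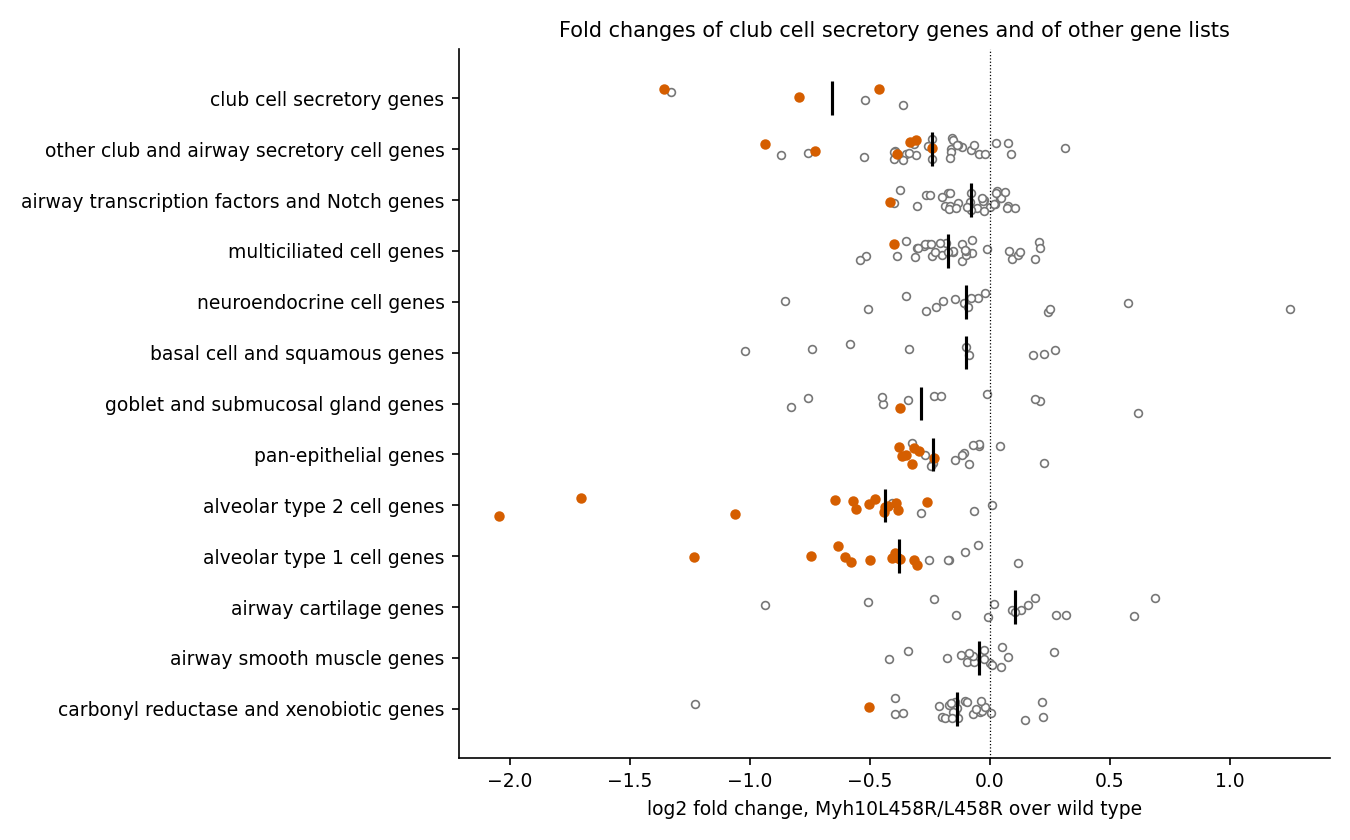
log2 fold change, Myh10L458R/L458R over wild type, of each tested gene (points) in the club cell secretory genes and 12 other lists (rows), with filled orange points for an adjusted p under 0.05, open grey points for the rest and black bars at the median of each list. The club cell secretory genes have a median of -0.66, and the alveolar type 2 and type 1 lists, at -0.44 and -0.38, hold most of the filled points.

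The genes whose levels over the 4 lungs followed the mean pattern of the 6 tested members most closely were sought among tested genes that averaged 100 or more counts, by root mean square distance of centred log2 CPM. They were *Ckm* (distance 0.02), *Hp* (0.06), *Eya2* (0.06), *Atp6v1c2* (0.07) and *Fam46b* (0.08). *Hp*, also among the airway secretory genes above, had 152 and 182 CPM in the wild-type lungs and 87.8 and 113 in the Myh10L458R/L458R lungs, and *Ckm*, muscle creatine kinase, had 6.76 and 8.61 against 4.24 and 4.97 CPM. All 5 were highest in wild-type lung 2 and lowest in Myh10L458R/L458R lung 1, which was also the order of the mean of the members. Antisense genes overlap exons of *Ckm* and *Atp6v1c2*, and with 4 lungs many genes can share such an order.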

How the data were processed

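RNA-seq counts of left lung lobes of 2 wild-type and 2 Myh10L458R/L458R mice at E17 were analysed, with genotypes and lung numbers from the sample labels. The values, as deposited by the authors, are raw counts of reads per gene, not normalized. The authors prepared stranded mRNA libraries, used Reaper to trim single-end reads, STAR 2.4.0a for alignment to GRCm38 and featureCounts 1.5.1 to count reads on exons, leaving out reads that could not be given to a single gene or position. Reads lost at these steps lower the counts of genes that share sequence or exons with others. Versions of STAR and featureCounts are from the submitters' processing notes. Depth was 19116971 to 32055306 counts per lung.

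Counts were fitted with edgeR 4.0.16 in R 4.3.3 (TMM, glmQLFit with robust = FALSE, glmQLFTest) on genes averaging 5 or more counts, with Benjamini-Hochberg adjustment over all 18763. The SE is the log2 fold change over the square root of F. The biological coefficient of variation was 7.15%. The code was tested on simulated data. Positions, exon lengths and 75-base windows came from GENCODE M21 (GRCm38). All list genes had an identifier in the table, some under older symbols.

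The members and gene lists were chosen with earlier results of these data known, and the motifs after the counts had been seen. Named genes were all members, list genes past an adjusted p of 0.05, the most abundant and best known genes of each list, family genes with a read, the 5 genes nearest in pattern and *Myh10*, of which a part is given. *Xist*, *Ddx3y*, *Gm15883*, *Gm11771* and genes overlapping a named gene were added as checks.

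Alternatives were DESeq2 size factors, library totals, no filter beyond 1 count, filterByExpr, robust = TRUE, the Wald test of DESeq2 1.42.0, a block for lung number, thinning to the smallest total, leaving out chromosomes X, Y and MT, a threshold of 0.1, leaving out each lung and, added after seeing the data, a block with crossed numbers.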

Additional observations from a re-analysis of the deposited data

How the results depend on the processing

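With 2 lungs per genotype the precision is set by the lungs, not by the depth, except for *Scgb3a1*, *Bpifb1* and *Bpifa1*, whose counts limit it. No fold change of a tested member changed sign under any of the 15 alternatives; the cause of the changes below was not tested unless the setting names it. The number of members called lower, 3, was 5 without a filter (adding *Scgb3a1* and *Scgb3a2*), 1 with robust = TRUE and 1 with the Wald test of DESeq2 (*Cyp2f2* in both), and 3 to 5 when 1 lung was left out. Each such fit rests on 3 lungs and assumes that the lone lung of a genotype varies like the others. Lung numbers do not pair the samples by the labels, and deviations of same-numbered lungs correlated at -0.30 over all tested genes and 0.01 without chromosomes X, Y and MT. With the replicate block in edgeR *Scgb1a1* was at -1.42 (adjusted p = 0.00170), *Cbr2* at -0.82 (6.90e-04), *Cyp2f2* at -0.46 (0.00441) and *Scgb3a2* at -0.35 (0.0122), so that 4 members were called. That block puts together lungs of opposite kind in *Xist* and *Ddx3y* reads. The block with crossed numbers puts together lungs of the same kind, and with it *Scgb1a1*, *Cbr2* and *Cyp2f2* were called.

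Over all tested genes, 252 were lower and 56 higher. The lower count was 688 without a filter, 466 with the replicate block, 473 at a threshold of 0.1 and 175 to 875 when 1 lung was left out, highest without Myh10L458R/L458R lung 2. The higher count was 111 with library totals, 474 without a filter, 135 with robust = TRUE, 92 with DESeq2, 244 with the replicate block, 95 with crossed numbers, 90 without chromosomes X, Y and MT, 223 at a threshold of 0.1 and 31 to 768 when 1 lung was left out. The share of calls that were lower, 81.8%, was 53.3% without Myh10L458R/L458R lung 2, 59.2% without a filter, 65.6% with the replicate block, 67.7% with library totals, 71.5% with robust = TRUE and 73.8% with DESeq2. Over the lists, the 42 lower genes became 71 without a filter and 30 to 70 when 1 lung was left out, and the 0 higher genes became 1 without a filter and 0 to 4 when 1 lung was left out.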
